A study of Mus musculus with 6 samples.

Results

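Slc15a2 and Slc15a3 are 2 of the 20882 genes counted in single leukocytes from mouse lung. Slc15a2 was selected on its counts in these libraries, because its level was higher in the library from mice given a PD-1 agonist than in the isotype library in several classes of cells. Slc15a3, a relative in the same gene family, was taken beside it for comparison. The ratios of Slc15a2 between the libraries are therefore the values that chose it. They are given as a description, with no test.

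Lung leukocytes, sorted as live CD45+ cells, came from a humanized PD-1 mouse strain at an age of 6 to 8 weeks, with isotype or PD-1 agonist as the treatment. PD-1 is an inhibitory receptor of lymphocytes. The sources used here do not state how its humanized allele was built. The series title places the treatment in neutrophilic asthma, but the labels name no sensitisation or challenge of either group. The labels present 3 mice per group, mixed by cell hashing at about 50000 cells per group, and no hashtag measurement was used here. The 3 tables of a treatment could not be treated as separate mice, against their labels. They shared 2373 to 2736 cell barcodes per pair, which was 35.87% to 42.5% of the smaller table, against 3 to 13 barcodes between tables of different treatments. Each treatment was therefore 1 pool with each barcode taken once, and neither a test nor a p-value was possible. The treatment cannot be told apart from the library.

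After removal of called doublets, 10302 isotype and 11168 agonist cells were kept of 12448 and 13728 barcodes, with a median of 2536.5 and 2212 counts per cell. The 6 tables held 21556544 to 29749816 counts each. Ptprc, which encodes CD45, was counted in 90.95% of cells from the isotype and 90.64% from the agonist library. Levels are in CPM (counts of a gene per 1000000 counts of its cells, after scaling). The 4 epithelial and 3 fibroblast markers among the counted genes summed to at most 6.54 and 0.892 CPM. Endothelial markers summed to 78.55 and 80.9 CPM, of which Pecam1 had 73.7 and 76.5 CPM, and platelet markers to 8.08 and 12.6 CPM. Clusters were named from marker genes as 17 classes, each written with "-like". The 5 other clusters, with 13.39% and 10.68% of the cells, are called by their leading genes. All intervals are 95% intervals of counting error only.

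The Slc15 family moves short peptides across membranes together with protons. Slc15a1 (PEPT1) is the transporter of the intestinal brush border, and Slc15a2 (PEPT2) is its high-affinity relative, known from kidney tubules and from the epithelium of lung and choroid plexus. Both accept dipeptides and tripeptides and some peptide-like drugs and bacterial cell wall fragments. Slc15a3 (PHT2) and Slc15a4 (PHT1) carry peptides and histidine at endosomes and lysosomes of immune cells, where bacterial muropeptides can reach the cytosolic sensors Nod1 and Nod2.

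In GENCODE's gene models on GRCm38 (mm10), Slc15a2 (ENSMUSG00000022899) spans 36750177 to 36784962 of chromosome 16 on the minus strand. Slc15a3 (ENSMUSG00000024737) spans 10839727 to 10859362 of chromosome 19 on the plus strand. The 250 bases before the RefSeq start of Slc15a2 on GRCm38 (chr16:36784963-36785212, minus strand) are shown because the results turn on Slc15a2. Of the 14 GENCODE transcripts of Slc15a2, 1 holds the 50 bases after this start, so the window is that of 1 annotated start among several. Capitals mark CG dinucleotides.

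Slc15a2 promoter: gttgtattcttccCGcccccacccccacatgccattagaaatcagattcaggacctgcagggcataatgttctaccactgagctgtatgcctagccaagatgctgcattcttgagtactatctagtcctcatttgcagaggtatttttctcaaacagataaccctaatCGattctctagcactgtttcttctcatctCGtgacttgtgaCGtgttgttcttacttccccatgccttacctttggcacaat

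The window held 4 CG dinucleotides and 45.2% G or C, against medians of 6 and 52.4% over the 32851 promoters of that length. Motifs were searched on both strands: an interferon-responsive element (in 2.98% of promoters), an NF-kB type motif (17.6%), TGANTCA (AP-1 type, 6.75%), GAGGAAGT (PU.1 type, 2.44%), TATAAA (12.4%), TGACGTCA (cyclic AMP response element, 1.55%) and CCGGAAGT (ETS type, 2.88%). The motifs GAGGAAGT and CCGGAAGT end in the same letters. The window matched 0 of these 7 motifs, which says only that these letters are not in it.

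Transcripts of Slc15a2 and Slc15a3 shared 0 stretches of 31 bases with each other or with Slc15a4, on either strand. For Slc15a2, 0.847% of its 7434 distinct stretches occurred in transcripts of other genes. For Slc15a3 the share was 27.6% of 5527, and 1511 of these stretches lie where its 3′ end overlaps the 3′ end of Tmem132a, on the opposite strand, by 1541 bases. Whether the counting used strand is not stated, so reads from that overlap may belong to either gene. Tmem132a had 66 isotype and 77 agonist counts over all kept cells, against 5679 and 6236 of Slc15a3.

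Slc15a2 was detected at a low level in nearly all leukocyte classes and was not restricted to a lineage. In the isotype library its level was 36.9 CPM (30.9 to 43.7) in the B cell-like class and 34.6 CPM (26.9 to 43.8) in the neutrophil-like class, the 2 highest of the 17. It was 28.0 CPM in ILC2-like, 23.9 in gamma-delta T cell-like and 22.9 in regulatory T cell-like cells, from 7, 9 and 11 counts. Nonclassical monocyte-like, interstitial macrophage-like and cDC2-like cells followed with 21.7, 20.1 and 18.2 CPM. The CD8 T cell-like and CD4 T cell-like classes had 16.5 and 15.6 CPM, and NK cell-like cells 11.5 CPM. The lowest levels, 3.54 CPM in dividing cell-like and 1.31 CPM in migratory DC-like cells, rested on 7 counts and 1 count. In that order the intervals of all 16 neighbouring pairs of classes overlapped, so no class was separated from the next. Some classes further apart were separated. The B cell-like interval, for example, lay above that of nonclassical monocyte-like cells (15.9 to 29.0).

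In the agonist library the order of the named classes began with gamma-delta T cell-like cells at 69.6 CPM (44.1 to 104), from 23 counts, and B cell-like cells at 66.3 CPM (58.5 to 74.9). ILC2-like, neutrophil-like and CD4 T cell-like cells followed with 51.5, 42.4 and 41.6 CPM. At the low end stood migratory DC-like cells with 4.84 CPM and alveolar macrophage-like cells with 0 counts in 32 cells. The exact interval of the alveolar macrophage-like share with a count was 0 to 10.9%, which sets no limit on cells expressing the gene. Here too the intervals of all 16 neighbouring pairs overlapped. B cell-like cells held 20.65% of the isotype and 21.77% of the agonist counts of Slc15a2. They were 17.7% and 19.13% of the kept cells, with medians of 1677 and 1533.5 counts per cell. Interstitial macrophage-like cells held 18.8% and 10.46% of the counts. They were 10.08% and 7.74% of the cells, with medians of 5787 and 5754 counts per cell. These shares do not allow for depth. Per count, the isotype levels of the 2 classes were 36.9 and 20.1 CPM, against 17.5 CPM over all kept cells.

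**Figure D1:**
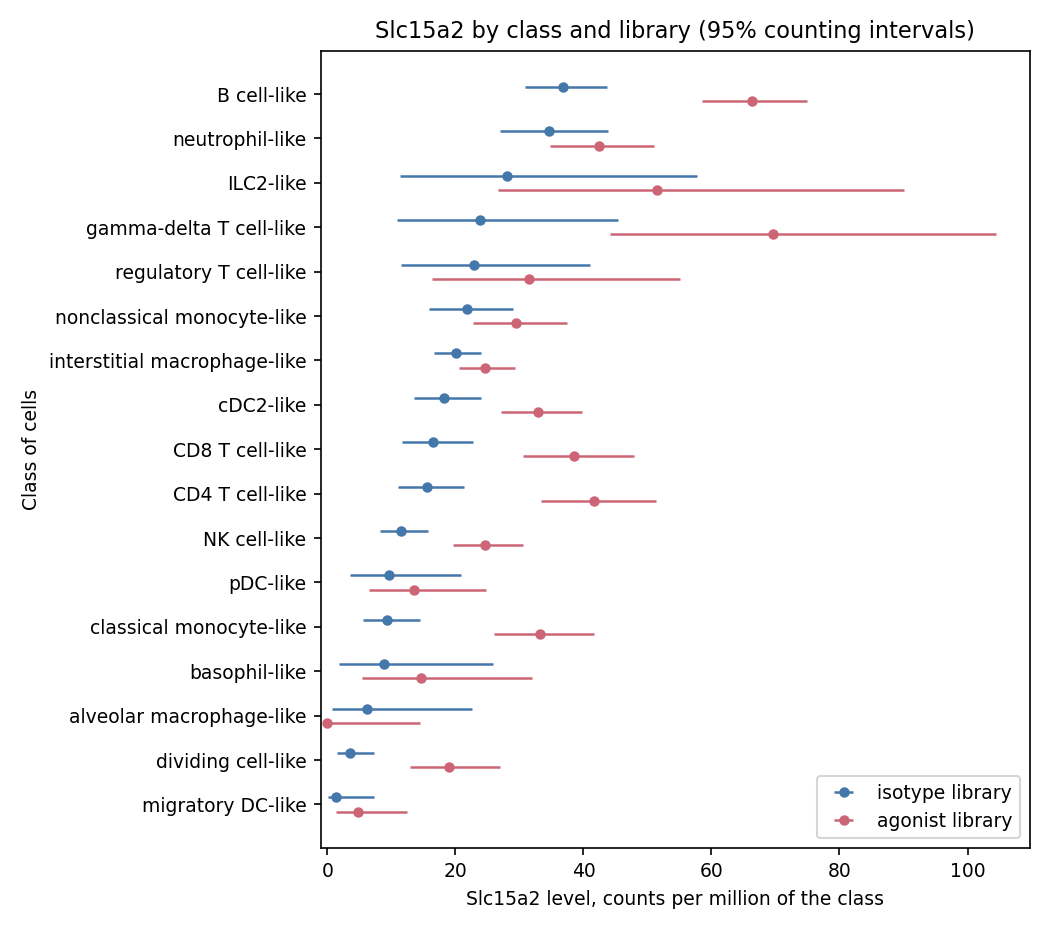
Level of Slc15a2 in the 17 marker-defined classes (vertical axis, ordered by the isotype level), in CPM of the class (horizontal axis). Points are the isotype and agonist pools and bars are 95% counting intervals. The B cell-like class has 36.9 and 66.3 CPM, the classical monocyte-like class 9.25 and 33.2 CPM, while the neutrophil-like intervals overlap.

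Over all kept cells Slc15a2 had 649 counts in the isotype and 1185 in the agonist library, or 17.5 CPM (16.2 to 18.9) and 33.4 CPM (31.5 to 35.4). The log2 ratio of agonist over isotype was 0.93 (0.79 to 1.07), just under the 2-fold mark. In the 3 isotype tables the level was 18.8, 17.0 and 17.4 CPM, and in the 3 agonist tables it was 32.9, 32.3 and 34.1 CPM, here without further scaling. Tables of a treatment share cells and are not replicates, so nothing is read from their separation. Genes with at least 50 counts over both libraries numbered 15107, and 3.03% of them were at least 2-fold higher in the agonist library. Of those genes, 500 had a higher ratio than Slc15a2.

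Slc15a2 was counted in 491 isotype cells, 4.77% (4.36 to 5.20), and in 932 agonist cells, 8.35% (7.84 to 8.87), by exact binomial intervals. The cells that had it carried 1.32 and 1.27 counts on average, which at so low a level cannot be far from 1. With every cell thinned to 1000 counts, which left out 533 and 741 shallower cells, the shares were 1.83% and 3.50%. No class was known beforehand to lack Slc15a2, so no background share could be set. The class with the lowest isotype share, the migratory DC-like cells, had it in 0.77% and 2.88% of cells at medians of 5821 and 5850 counts per cell. The cell with the most counts held 0.92% and 0.76% of each library's total.

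The level was higher in the agonist library in 16 of the 17 named classes and lower in 1, the alveolar macrophage-like class with 2 and 0 counts. Of all genes with at least 50 counts, 43.5% to 56.6% per named class had a ratio above 0. The interval of the Slc15a2 ratio lay above 0 in 8 classes and held 0 in 9, and no share over all genes is given for the intervals. At least 50 counts over both libraries were available in 9 classes, and in 4 of them Slc15a2 was at least 2-fold higher, namely classical monocyte-like, CD4 T cell-like, CD8 T cell-like and NK cell-like cells. Of all genes tested in these 4 classes, 2.25%, 2.24%, 1.91% and 2.26% were called so. In cDC2-like, interstitial macrophage-like, nonclassical monocyte-like, neutrophil-like and B cell-like cells the share was 2.57%, 2.32%, 2.36%, 2.05% and 2.08%. Nothing is read from these shares for Slc15a2, since its ratios chose it. The median log2 ratio over the 9 classes was 0.85, from 0.29 to 1.84. The class just inside the 2-fold mark was NK cell-like, at 1.09, and just outside it were cDC2-like and B cell-like cells, at 0.85 each. Without the second isotype table the count was 2 of 9, with NK cell-like cells at 0.80 and CD8 T cell-like cells at 0.99. With no upper limit on genes per cell it was 7 of 11 classes.

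All T cells means the 4 named T cell-like classes and the unnamed clusters led by Tcrg-C2 and by Mmp12. The dividing cell-like class was left out, but the closest marker list of the Tcrg-C2 cluster was that of dividing cells. All T cells had 111 isotype and 228 agonist counts of Slc15a2, 15.9 CPM (13.1 to 19.2) and 39.3 CPM (34.3 to 44.7). The isotype tables gave 19.1, 12.9 and 12.4 CPM and the agonist tables had 40.5, 41.2 and 37.5 CPM. The log2 ratio between the pools was 1.30 (0.97 to 1.64), and nothing is read from the tables, which share cells within a treatment. Of 10763 genes in T cells, 2.18% were called higher, and 174 genes had a higher ratio than Slc15a2. The share of T cells with a count was 4.47% (3.64 to 5.43) and 8.99% (7.80 to 10.29), and 1.61% and 3.72% after thinning. Cells that the authors marked as positive for Cd3e, a T cell receptor complex gene, had 13.5 and 34.7 CPM, a log2 ratio of 1.37 (1.02 to 1.72).

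CD4 T cell-like cells had 38 and 88 counts, 15.6 CPM and 41.6 CPM, a log2 ratio of 1.42 (0.85 to 2.01). They comprised 2 clusters. The cluster led by St8sia6 and Igfbp4 had 20.8 and 49.6 CPM, and the one led by Ifitm1 and Ifitm2, in which the type 17 cytokine gene Il17f was among the leading genes, had 12.3 and 29.7 CPM. CD8 T cell-like cells had 37 and 80 counts, 16.5 CPM and 38.5 CPM, a log2 ratio of 1.22 (0.64 to 1.82). Their cluster led by Ccr9, with the lymph node homing receptor gene Ccr7 among its leading genes, had 17.9 and 41.2 CPM, and the cluster led by Cd8a and Cd8b1 had 15.7 and 35.3 CPM. The ratios of these 4 clusters ran from 1.16 to 1.28 by total scaling.

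Rarer T cells gave wider values. Gamma-delta T cell-like cells had 9 and 23 counts, 23.9 CPM and 69.6 CPM, a log2 ratio of 1.54 (0.38 to 2.84), and a single cell carried 44.4% of the isotype counts. That ratio was 2.85 without the first isotype table. It was 1.30 (-0.01 to 2.69) without the first agonist table and 1.15 (-0.08 to 2.48) with the lowest-total record of each barcode, so its interval then held 0. Regulatory T cell-like cells had 11 and 12 counts, 22.9 CPM and 31.5 CPM, and the interval of the ratio, -0.85 to 1.78, held 0. The neutrophil genes S100a8 and S100a9 were among the 10 leading genes of 1 of their 2 clusters, led by Foxp3 and Tnfrsf4. That cluster had 15.8 and 34.3 CPM of Slc15a2 from 6 and 11 counts. The cluster led by Gpr83 and Lrrc32 went the other way, with 46.7 and 18.3 CPM from 5 counts and 1 count. The unnamed cluster led by Tcrg-C2, Klra6 and Tcrg-C4 had 10.6 and 28.5 CPM, a log2 ratio of 1.42 (0.44 to 2.45). Trdc, a gene of the gamma-delta T cell list, was also among its leading genes.

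NK cell-like cells had 40 and 84 counts, 11.5 CPM (8.24 to 15.7) and 24.6 CPM (19.6 to 30.5), a log2 ratio of 1.09 (0.53 to 1.67). The cluster led by Cma1, with the perforin gene Prf1 among its leading genes, had 12.0 and 28.9 CPM, and the cluster led by Car2 and Gzmc had 11.1 and 20.7 CPM. ILC2-like cells had 7 and 12 counts, with an interval of -0.58 to 2.46. Dividing cell-like cells had 7 and 31 counts, 3.54 CPM (1.42 to 7.29) and 18.97 CPM (12.9 to 26.9), a log2 ratio of 2.42 (1.21 to 3.85), which was 1.24 (0.68 to 1.82) with no upper limit on genes per cell. In their 2 clusters the counts were 2 and 15, and 5 and 16.

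B cell-like cells had 134 isotype and 258 agonist counts, 36.9 CPM and 66.3 CPM, a log2 ratio of 0.85 (0.54 to 1.16). The isotype tables gave 35.4, 38.1 and 36.8 CPM and the agonist tables had 69.7, 68.2 and 63.5 CPM. Of 9449 genes in this class, 2.08% were at least 2-fold higher. The share of B cell-like cells with a count was 5.60% (4.59 to 6.75) and 9.74% (8.51 to 11.1). The cluster led by Ighd and Fcer2a, genes of mature follicular B cells, had 39.1 and 71.1 CPM, and the cluster led by immunoglobulin genes such as Iglc1 and Ighg2b had 32.6 and 56.0 CPM.

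Among the 5 myeloid classes with at least 50 counts, ratios ran from 0.29 to 1.84. Classical monocyte-like cells had 19 and 73 counts, 9.25 CPM (5.57 to 14.5) and 33.2 CPM (26.0 to 41.7). The isotype tables gave 13.05, 9.15 and 11.7 CPM and the agonist tables had 26.3, 41.0 and 27.4 CPM. The log2 ratio was 1.84 (1.10 to 2.65). It was below that of CD4 T cell-like cells without the second isotype table (1.34 against 1.44), with called doublets kept (1.35 against 1.53) and with the lowest-total records (1.43 against 1.59). The share of cells with a count was 4.37% and 13.5%. Nonclassical monocyte-like cells had 46 and 65 counts, 21.7 CPM (15.9 to 29.0) and 29.4 CPM (22.7 to 37.5), and the interval of the ratio, 0.44 (-0.13 to 1.01), held 0. It lay above 0 in several alternatives, with a ratio of 0.85 with the lowest-total records, 0.82 with doublets kept, 0.56 with no upper limit on genes, 0.75 without the third isotype table, and 0.73 and 0.61 without the first and the second agonist table. The difference of ratios between the 2 monocyte classes was not tested.

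cDC2-like cells, a class of conventional dendritic cells, had 50 and 109 counts, 18.2 CPM (13.5 to 24.0) and 33.0 CPM (27.1 to 39.7), a log2 ratio of 0.85 (0.36 to 1.37). Plasmacytoid DC-like cells had 6 and 10 counts and basophil-like cells 3 and 6, with intervals that held 0. Interstitial macrophage-like cells had 122 and 124 counts, 20.1 CPM (16.7 to 24.0) and 24.6 CPM (20.5 to 29.4), a log2 ratio of 0.30 (-0.08 to 0.67). The interval lay above 0 with no upper limit on genes per cell, at 0.61 (0.33 to 0.88), and with doublets kept, at 0.35 (0.0033 to 0.70). The unnamed cluster led by Slc7a2, Gpnmb and Arg1 had 5.45 and 10.0 CPM from 8 and 15 counts.

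Neutrophil-like cells had 69 and 110 counts, 34.6 CPM (26.9 to 43.8) and 42.4 CPM (34.8 to 51.1), a log2 ratio of 0.29 (-0.15 to 0.75). The isotype tables gave 37.0, 40.9 and 27.2 CPM and the agonist tables had 39.2, 35.6 and 39.3 CPM, so the tables of the treatments overlapped. At a Leiden resolution of 2 the class gave 0.76 (0.38 to 1.15). Their large cluster, led by Retnlg, had 39.0 and 41.8 CPM. The small cluster led by the granule genes Ngp, Camp and Ltf had 0 counts in 37 isotype cells and 8 counts in 36 agonist cells. The 0 counts set no limit on cells expressing the gene. The unnamed cluster led by Il1a, Il1rn and Rab15, whose closest marker list was that of neutrophils, had 21 and 46 counts, 11.3 CPM (6.96 to 17.2) and 31.6 CPM (23.2 to 42.2). Its log2 ratio was 1.49 (0.72 to 2.31), and in this cluster 33 of 5687 genes had a higher one and 1.56% of genes were at least 2-fold higher.

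**Figure D2:**
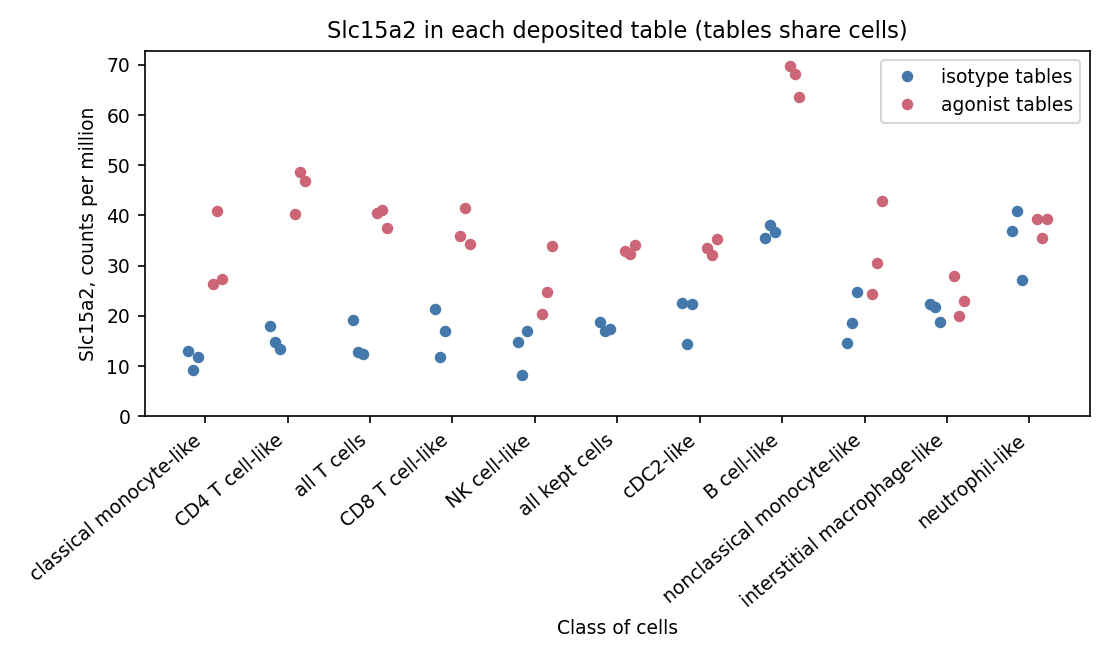
Level of Slc15a2 in CPM (vertical axis, from 0) in each of the 3 isotype and 3 agonist tables, for all kept cells, all T cells and the 9 classes with at least 50 counts (horizontal axis). Each point is a table, and tables of a treatment share cells. The B cell-like points lie at 35.4 to 38.1 CPM and 63.5 to 69.7 CPM, while the neutrophil-like points overlap.

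Markers of neutrophils moved with the library in other classes. The 12 genes of the neutrophil list summed to 167 and 245 CPM in all T cells, with 1 and 0 of the genes at 0 counts, and to 131 and 206 CPM in B cell-like cells. The sum was higher in the agonist library in 14 of the 16 named classes other than neutrophils, lower in the plasmacytoid DC-like and nonclassical monocyte-like classes, and lay between 56.1 and 9681 CPM in the isotype and between 109 and 7915 CPM in the agonist library. In neutrophil-like cells it was 154200 and 167700 CPM. Their part in the Slc15a2 result was not tested.

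Slc15a3 was highest in myeloid classes. Among the named classes its isotype level was highest in neutrophil-like cells, at 500 CPM (470 to 533), with no overlap to the next class. The unnamed cluster led by Il1a, Il1rn and Rab15, closest to the neutrophil list, had 556 CPM (523 to 591). Its interval overlapped that of neutrophil-like cells. The Slc15a3 level was 284 CPM in nonclassical monocyte-like, 276 CPM in interstitial macrophage-like and 207 CPM in alveolar macrophage-like cells, whose intervals overlapped from each class to the next. The cDC2-like class had 153 CPM (139 to 169), above the 111 CPM (97.1 to 126) of classical monocyte-like cells, and plasmacytoid DC-like cells had 94.0 CPM. Regulatory T cell-like cells had 52.1 CPM (33.8 to 77.0). All 25 of their isotype counts lay in the cluster with S100a8 and S100a9 among its leading genes, and their other cluster had 0. The neutrophil list summed to 964 CPM in this class of the isotype library, against 131 CPM in B cell-like cells. Its part in the Slc15a3 level was not tested. The other lymphocytes named here were lower, with 18.4 CPM in B cell-like, 17.2 in CD4 T cell-like, 5.48 in NK cell-like and 2.23 CPM in CD8 T cell-like cells.

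In the agonist library neutrophil-like cells again came first of the named classes with 681 CPM (649 to 713), and CD8 T cell-like cells last with 2.89 CPM. The unnamed cluster led by Il1a had 605 CPM (566 to 647) there. In the isotype library 14 of 16 neighbouring pairs in the order overlapped, and in the agonist library 13 of 16. In CD8 T cell-like cells Slc15a3 was counted in 0.58% and 0.81% of cells at medians of 2935 and 2572 counts. In neutrophil-like cells the shares were 52.9% and 59.2% at medians of 1582 and 1485.5 counts. Within classes the gene was uneven. The nonclassical monocyte-like cluster that also had F13a1 among its leading genes held 337 and 410 CPM, and the other held 193 and 160 CPM. Among CD4 T cell-like cells, the cluster led by Ifitm1 had 27.4 and 28.7 CPM and the cluster led by St8sia6 had 3.96 and 4.96 CPM.

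**Figure D3:**
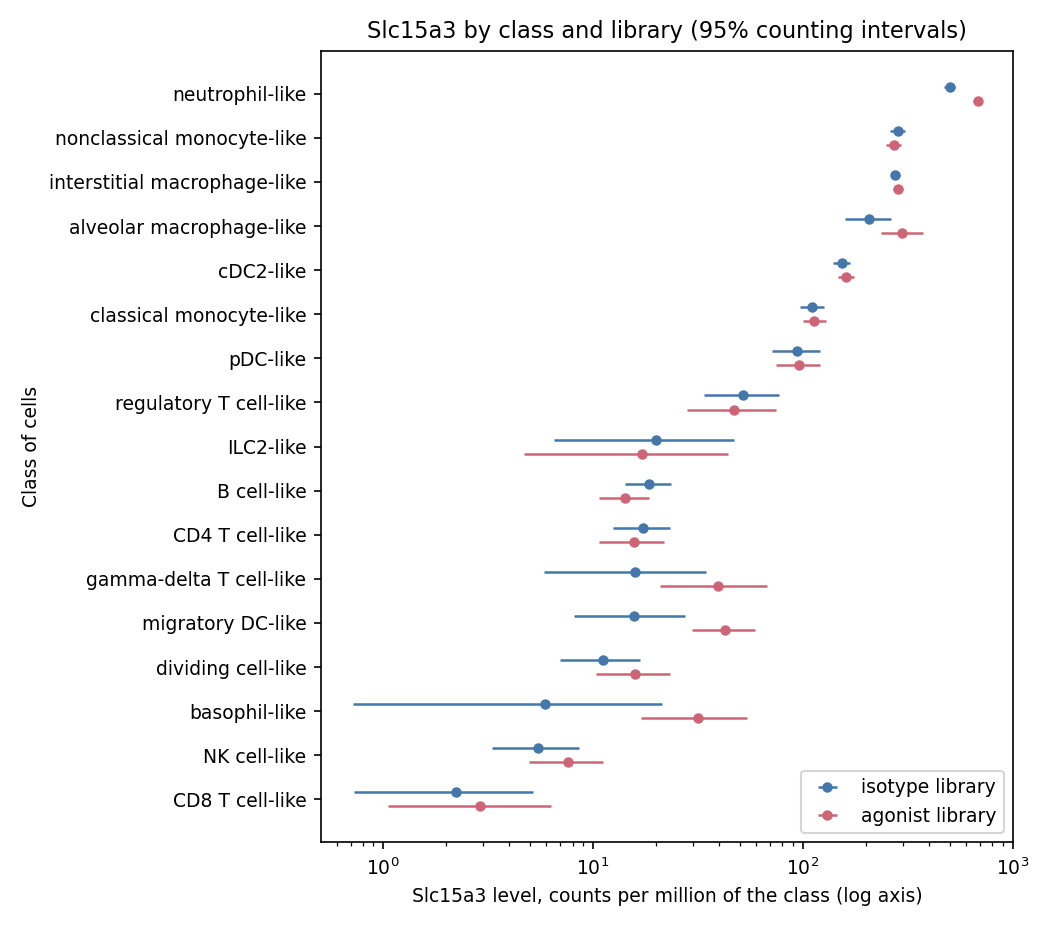
Level of Slc15a3 in the 17 classes, in CPM of the class on a log axis (horizontal), with classes ordered by the isotype level (vertical). Points are the isotype and agonist pools and bars are 95% counting intervals. Levels run from 2.23 CPM in CD8 T cell-like to 500 CPM in neutrophil-like cells of the isotype library.

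Between the libraries Slc15a3 differed little. Over all kept cells it had 153 CPM (149 to 158) and 176 CPM (172 to 180), a log2 ratio of 0.20 (0.14 to 0.25). The isotype tables gave 154, 156 and 158 CPM and the agonist tables had 176, 174 and 172 CPM. Neutrophil-like cells were 10.8% of the isotype and 14.6% of the agonist cells and held 17.6% and 28.3% of the Slc15a3 counts. The unnamed cluster led by Il1a was 8.18% and 6.59% of the cells and held 18.3% and 14.1% of the counts. In all T cells Slc15a3 had 12.3 and 12.6 CPM, a log2 ratio of 0.03 (-0.44 to 0.50), which became 0.38 (0.14 to 0.62) when called doublets were kept.

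Over the 17 named classes Slc15a3 was higher in the agonist library in 12 and lower in 5, with 4 intervals above 0 and 0 below. Per named class, 43.5% to 56.6% of genes with at least 50 counts were higher, and no such share is given for the intervals. Of the 9 named classes with at least 50 Slc15a3 counts, 6 were higher and 3 lower in the agonist library, and 0 were 2-fold higher, where 2.51% of genes in plasmacytoid DC-like and 2.71% in alveolar macrophage-like cells were. The shares in the other 7 classes stand above with Slc15a2. The median log2 ratio was 0.03, from -0.38 in B cell-like to 0.53 in alveolar macrophage-like cells. Neutrophil-like cells had 500 and 681 CPM, a log2 ratio of 0.44 (0.33 to 0.56). Their isotype tables gave 510, 525 and 532 CPM and their agonist tables, which likewise share cells, 653, 655 and 637 CPM. Of the 5701 genes in that class, 2.05% were at least 2-fold higher and 601 had a higher ratio than Slc15a3. Alveolar macrophage-like cells had 66 and 76 counts in 37 and 32 cells, with an interval of 0.03 to 1.03 that held 0 without the third isotype table (0.37), without the first (0.32) or second agonist table (0.28) and with median-of-ratios scaling (0.47). In B cell-like cells the ratio of -0.38 (-0.92 to 0.15) became 0.39 (0.09 to 0.69) when called doublets were kept. Under 50 counts, the migratory DC-like class had 12 and 35 counts, 15.7 and 42.4 CPM, a log2 ratio of 1.43 (0.45 to 2.51) that was 0.62 with no upper limit on genes. The basophil-like class had 2 and 13 counts, a ratio of 2.43 (0.29 to 5.62) that was 0.26 (-0.40 to 0.93) with no upper limit, 0.69 with doublets kept, 1.46 with the lowest-total records, and 1.55 and 2.13 without the first isotype or agonist table. In each of these the basophil-like interval held 0.

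In the 5 classes where both genes had at least 50 counts and the cells were myeloid, the ratios of both are given side by side, with no comparison drawn, since the Slc15a2 ratio chose the gene. In classical monocyte-like cells Slc15a2 had a ratio of 1.84 and Slc15a3 a ratio of 0.03 (-0.23 to 0.30). In cDC2-like cells the ratios were 0.85 and 0.07 (-0.12 to 0.26). In nonclassical monocyte-like cells they were 0.44 and -0.07, in interstitial macrophage-like cells 0.30 and 0.05, and in neutrophil-like cells 0.29 and 0.44. In CD4 T cell-like cells they were 1.42 and -0.14 (-0.85 to 0.55). Over the 17 classes in both libraries the levels of the 2 genes had a Pearson correlation of -0.01 (34 points, log2 of CPM plus 10), given as a description, since the points share library and depth.

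**Figure D4:**
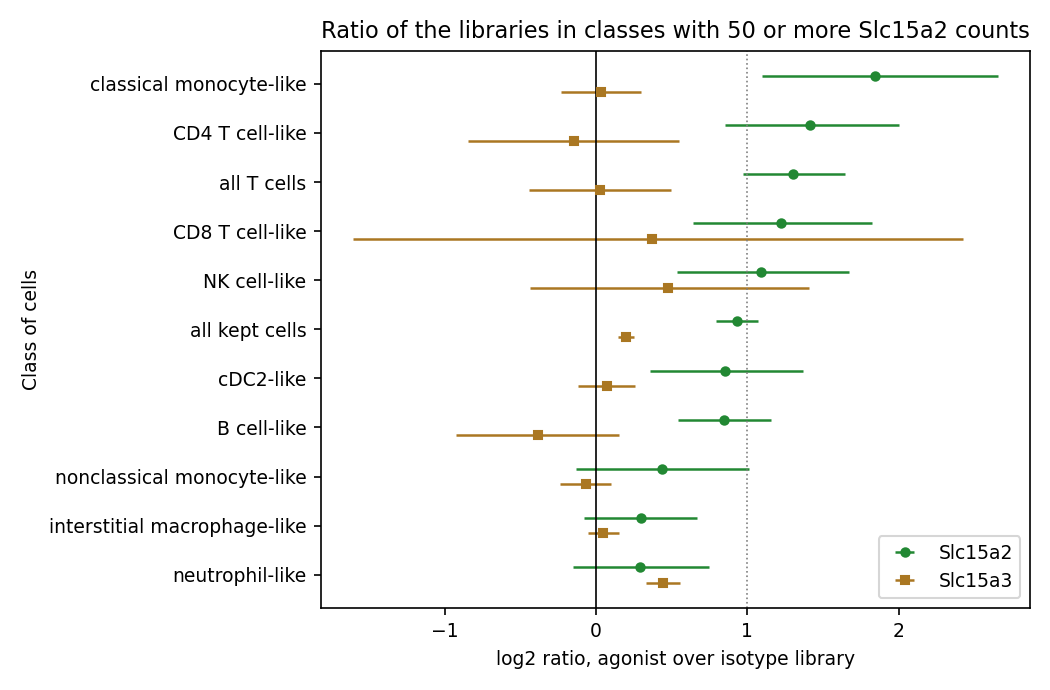
Log2 ratio of agonist over isotype (horizontal axis) of Slc15a2 and Slc15a3 in all kept cells, all T cells and the 9 classes with at least 50 Slc15a2 counts (vertical axis). Bars are 95% counting intervals, the solid line marks no difference and the dotted line 2-fold. Slc15a2 runs from 0.29 in neutrophil-like to 1.84 in classical monocyte-like cells, and Slc15a3 stays between -0.38 and 0.48.

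Other family members are described with no comparison to Slc15a2, since its ratio chose that gene. Slc15a4 had 43.4 CPM (41.3 to 45.6) and 41.6 CPM (39.5 to 43.8) over all kept cells, a log2 ratio of -0.06 (-0.17 to 0.04). Its highest level was in plasmacytoid DC-like cells, at 140 and 161 CPM, a cell type known for endosomal Toll-like receptor signalling. In the isotype library the cDC2-like and nonclassical monocyte-like classes followed with 79.5 and 78.4 CPM. B cell-like cells had 69.4 and 69.9 CPM, a log2 ratio of 0.01 (-0.24 to 0.27). Of 10 classes with at least 50 Slc15a4 counts, 3 were higher and 7 lower, with a median log2 ratio of -0.14 from -0.41 to 0.22. The intervals of cDC2-like cells (-0.60 to -0.04) and interstitial macrophage-like cells (-0.54 to -0.06) lay below 0. Slc15a1 had 4 and 6 counts over all kept cells. Slc15a5 was not analysed here.

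Genes that work with these transporters were grouped in 5 further lists. In all kept cells 3.03% of genes were called 2-fold higher and 0.397% lower, and in all T cells 2.18% and 0.502%. The median log2 ratio of all genes was -0.00 and -0.02 there, and 48.9% and 46.1% of them had a ratio above 0.

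The list of muropeptide sensing holds the cytosolic receptors of bacterial cell wall fragments and their signalling partners. In T cells 10 of its 12 genes had 50 counts, 3 were higher and 7 lower, 0 of them by 2-fold, with a median of -0.08. Nod1, a sensor of such fragments, had 21.9 and 18.6 CPM in T cells, a log2 ratio of -0.24 (-0.61 to 0.13), and over all kept cells 34.2 and 27.9 CPM (-0.29, from -0.42 to -0.17). Ripk2, the kinase downstream of Nod1 and Nod2, had 13.9 and 11.5 CPM in T cells, with an interval of -0.74 to 0.20. Birc3 and Tab2, which act in ubiquitin signalling below Ripk2, had 149 and 165 CPM (0.15, from 0.02 to 0.28) and 175 and 156 CPM (-0.17, from -0.29 to -0.04). Over all kept cells 5 of the 12 genes were higher and 7 lower, with a median of -0.03.

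The list of the Slc15a4 partner and endosomal Toll-like receptors includes 5430427O19Rik, the mouse gene of the adaptor TASL, and Irf5 and Irf7, transcription factors that these receptors activate. In T cells 7 of 10 genes had 50 counts, 3 higher and 4 lower, with a median of -0.01, and over all kept cells 2 were higher and 8 lower, with a median of -0.06. By 2-fold 0 differed in either. Unc93b1, the chaperone of these receptors, had 255 and 246 CPM over all kept cells (-0.05, from -0.10 to -0.01). In T cells Irf7 had 58.7 and 51.3 CPM (-0.19, from -0.41 to 0.03) and Irf5 had 6.74 and 4.82 CPM (-0.48, from -1.21 to 0.22).

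Peptidases that make or cleave short peptides had 12 of 17 counted genes with 50 counts in T cells, 3 higher and 9 lower, with a median of -0.07, and 0 by 2-fold. Dpp4, the dipeptidyl peptidase also called CD26, had 60.4 and 71.7 CPM in T cells (0.25, from 0.05 to 0.45). Cndp2, a cytosolic dipeptidase, had 42.3 and 35.5 CPM (-0.25, from -0.52 to 0.01). Ctsc, the lysosomal dipeptidyl peptidase cathepsin C, had 377 and 336 CPM over all kept cells (-0.16, from -0.20 to -0.13), and Tpp2, a cytosolic tripeptidyl peptidase, 102 and 103 CPM (0.01, from -0.05 to 0.08). Over all kept cells 6 of 16 were higher and 10 lower, with a median of -0.01.

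Amino acid transporters, an alternative route of uptake, had 11 of 13 genes with 50 counts in T cells, 4 higher and 7 lower, with a median of -0.03, and 0 by 2-fold. Slc7a11, the cystine and glutamate exchanger, had 3.44 and 5.34 CPM in T cells (0.63, from -0.18 to 1.47), and 212 and 269 CPM over all kept cells (0.34, from 0.30 to 0.38). Slc36a4 had 8.03 and 9.65 CPM in T cells (0.26, from -0.30 to 0.83). Slc38a2, a sodium-coupled neutral amino acid transporter, had 328 and 321 CPM (-0.03, from -0.12 to 0.06). Over all kept cells 9 were higher and 4 lower, with a median of 0.02.

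From the list of scaffold and sodium-proton exchange genes, Slc9a3r1, which encodes a PDZ scaffold of membrane transporters, had 113 and 96.6 CPM in T cells (-0.22, from -0.38 to -0.06). In all kept cells 1 gene of the list was at least 2-fold higher. That was Slc9a3r2, named after its values were seen, with 27 and 53 counts, 0.73 and 1.49 CPM.

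Genes near Slc15a2 were described in T cells. Of 15 counted genes within 500 kb, 5 had 50 counts there, 2 higher and 3 lower, 0 by 2-fold, with a median of -0.13 from -0.41 to 0.21. Cd86, which encodes a costimulatory ligand, had 8.46 and 6.37 CPM (-0.41, from -1.04 to 0.21). Iqcb1, a cilium gene whose start site lies 43.4 kb away, had 7.89 and 6.89 CPM (-0.19, from -0.82 to 0.42). Golgb1, which encodes the Golgi protein giantin, had 40.4 and 36.9 CPM (-0.13, from -0.40 to 0.13), and Gm49599, an uncharacterised transcript that begins at the same base, 19.8 and 22.9 CPM (0.21, from -0.14 to 0.57). Hcls1, a cortactin-like gene of blood cells, had 147 and 147 CPM (0.00, from -0.13 to 0.14).

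Over all kept cells 11 neighbours had 50 counts, 8 higher and 3 lower, and 2 were at least 2-fold higher, against 3.03% of all genes. Those 2, named after their values were seen, were Stfa3 with 1.32 and 3.21 CPM and Eaf2 with 1.65 and 3.52 CPM. Stfa3 belongs to a cluster of near-identical stefin genes, so its counts are uncertain, and the next stefin gene, Stfa2, had 6.41 and 3.89 CPM. Eaf2, which encodes a transcription elongation factor, had 40 and 86 counts in B cell-like cells, 11.0 and 22.1 CPM, a log2 ratio of 1.01 (0.45 to 1.59), and 6 and 7 counts in T cells. In B cell-like cells 7 neighbours had 50 counts and Eaf2 alone was at 2-fold, where 2.08% of genes were. Near Slc15a3, 16 of 28 genes had 50 counts in T cells, 6 higher and 10 lower, with a median of -0.11. The 1 gene past 2-fold was Tkfc, lower at -1.10 with 49 and 19 counts, where 0.502% of genes were called lower.

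**Figure D5:**
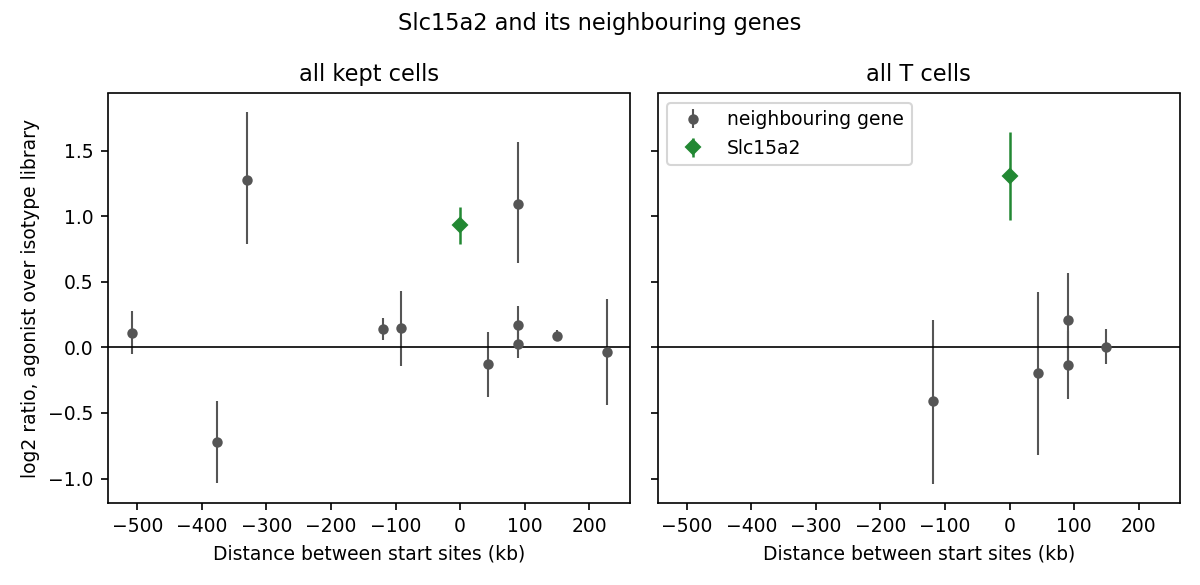
Log2 ratio of agonist over isotype (vertical axis) of Slc15a2 and of the neighbouring genes with at least 50 counts, against the distance between start sites in kb (horizontal axis), in all kept cells (left) and all T cells (right). Bars are 95% counting intervals. In T cells the 5 neighbours lie between -0.41 and 0.21 and Slc15a2 at 1.30.

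Genes with the most similar pattern of levels were ranked by the Pearson correlation of log2(CPM + 10) over the 17 classes and both libraries, among 10188 protein-coding genes with at least 100 counts in each library. For Slc15a2 they were Zfp652 (0.71), Arnt (0.70), Jmjd1c (0.70), Itsn2 (0.69), E4f1 (0.69) and Tra2a (0.68). All 6 had 0 classes past 2-fold between the libraries among those with at least 50 counts, and their median log2 ratios over classes ran from -0.00 for Zfp652 to 0.12 for Tra2a. Zfp652, a zinc finger gene, had 51.0 and 50.8 CPM over all kept cells, and Arnt, the partner subunit of the aryl hydrocarbon receptor, 53.8 and 58.3 CPM. The isotype library alone kept 3 of these 6 genes and the agonist library alone kept 2.

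For Slc15a3 the correlations were closer, among them those of Fth1 (0.93), Rbm47 (0.93), Cd300c2 (0.92), Aldh3b1 (0.90) and Zdhhc9 (0.90). Fth1, the ferritin heavy chain, had its highest isotype level in alveolar macrophage-like cells, and Cd300c2, a myeloid surface receptor, in nonclassical monocyte-like cells. Rbm47 and Zdhhc9 were highest in neutrophil-like cells. A pseudocount of 1 kept 5 of the 6 top-ranked genes, the isotype library alone also kept 5, and the agonist library alone kept 3.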

How the data were processed

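Cells were profiled by 10x Genomics droplet sequencing, per the labels. The authors deposited estimated counts per cell for 20882 genes, without a normalization that the values show, and all counts of both members were whole. Per the file headers, the authors also give each cell's total count, number of expressed genes and percent of mitochondrial and ribosomal reads. The submitters' processing notes name Partek and mm10, and no aligner or counter was named. In each table, 3 to 12 lines that held joined records were split.

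Each barcode was taken once per treatment, from its record with the highest total. Cells inside the authors' filter (11106 and 12216) were kept unless Scrublet (expected rate 0.1, threshold 0.25) called a doublet, as it did for 804 (7.24%) and 1048 (8.58%). Clustering used scanpy 1.11.5 (2000 variable genes, 30 components, 15 neighbours) and leidenalg 0.10.2 at resolution 1, without 60 member and list genes. T, NK and ILC2 clusters were clustered again. A cluster was named from 26 marker lists when at least 3 markers were detected in 10% of cells and no other list had more of its 10 leading genes. In that second round, clusters closest to a list outside T, NK and ILC2 cells, or to the general T cell list, stayed unnamed. These rules were set after the clusters were seen.

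Counts were summed per treatment and class, rounded and scaled with TMM factors (edgeR 4.0.16, used for these only). Levels have exact Poisson intervals, ratios and shares exact Clopper-Pearson intervals. The ratio intervals were tested on simulated Poisson counts. Such counts hold no spread between cells or mice, so that test covers counting error only. Members and lists were chosen with earlier results of these data known. Genes named from a list were the 2 with the highest level in all kept cells and the 2 with the largest ratio in T cells. Some genes that these rules name are not reported here. Named neighbours lay within 500 kb with at least 50 counts in T cells. Other scalings, filters, doublet treatments, resolutions and left-out tables were tried.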

Additional observations from a re-analysis of the deposited data

How the results depend on the processing

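No paired analysis was possible because the 3 tables of a treatment share cells, so the replicate numbers mark no separate samples. In the alternatives tried, the log2 ratio of Slc15a2 kept its sign in all kept cells and in all T cells. With 1 table left out it lay between 0.88 and 0.98 in all kept cells and between 1.27 and 1.56 in T cells, and other scalings gave 0.91 and 0.93, and 1.29 and 1.30. For Slc15a3 the left-out tables gave 0.16 to 0.21 and -0.14 to 0.13, and keeping doublets gave 0.38 (0.14 to 0.62) in T cells. The count of classes with Slc15a2 at least 2-fold higher was 7 of 11 with no upper limit on genes per cell, 2 to 4 with a table left out, 3 with the lowest-total record, and 6 with doublets kept, at resolution 2 or at 20 counts. For Slc15a3 the count of 0 became 1 with doublets kept and 1 at 20 counts, and stayed 0 with any table left out. Of the values for single classes, 5 moved beyond their interval, namely those in gamma-delta T cell-like, neutrophil-like and B cell-like cells given above, the B cell-like value of Slc15a3 also with no upper limit (0.39), and basophil-like Slc15a3 with no upper limit (0.26). The cause was not tested. Among the Slc15a2 ratios, the plasmacytoid DC-like value, from 16 counts, changed sign to -0.04 without the first agonist table, and the basophil-like value, from 9 counts, to -0.27 with the lowest-total records. Slc15a3 ratios also changed sign under some alternative in all T cells and in B cell-like, CD8 T cell-like, regulatory T cell-like, ILC2-like, dividing cell-like, cDC2-like, classical monocyte-like and plasmacytoid DC-like cells. Alternatives that moved an interval to the other side of 0 for Slc15a2 are given above, except the migratory DC-like value of 2.96 (0.06 to 8.43) with no upper limit. Depth limits Slc15a2 in classes under 50 counts, where intervals span more than 2-fold. Intervals also span more than 2-fold in the 4 classes called 2-fold higher, such as NK cell-like cells (0.53 to 1.67). The same holds for nonclassical monocyte-like and cDC2-like cells.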
